A study of Mus musculus with 9 samples.

Results

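The transcripts described here are those whose gene symbol ends in "os", for opposite strand, with or without a number, and is otherwise the symbol of another gene, such as Hoxb3os of Hoxb3. Of 325 symbols with this ending, 299 left a symbol that was itself listed when the ending was cut, and 135 of those 299 were above 0 in at least 1 library. These 135 members, out of 17428 symbols above 0 in all, were chosen by name and by their measured values. The lowest members had 1 read in all, and the 164 paired symbols left out had 0. The members pair with 128 partners, since some genes have more than 1 opposite-strand transcript.

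The libraries came from fibroblasts of mouse lungs at an early stage of metastasis, sorted as CD45-, EpCAM- and PDGFRa+ cells. CD45 marks leukocytes, EpCAM marks epithelium and PDGFRa marks mesenchymal cells; per the study's methods the gate also left out CD31+ endothelial cells. The PBS group (n = 4) received the vehicle, which the labels call both Pbs and Saline, and the DOX group (n = 5) received doxorubicin, an anthracycline that poisons topoisomerase II. Per the study's methods, female mice had a mammary tumor grown from injected cells and then removed, DOX mice received 2 doses of 5 mg/kg, and lungs were taken 24 hours after the last dose. The labels name neither the mouse strain nor the tumor line of these animals, and no allele was altered in either group. Labels mark the libraries of a group as biological replicates without saying how many mice each holds.

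Opposite-strand transcripts, or natural antisense transcripts, are made from the DNA strand that a neighboring gene does not use. Some start next to the partner's promoter and run away from it, some run into the partner's 3′ end, and some lie within it. Most do not encode a protein, and a few are hosts of microRNAs. In these libraries, made by MARS-seq, a tag near the 3′ end of a polyadenylated RNA is read together with its strand, so a level counts tags per transcript end and needs no division by length. Reads were counted with HTSeq-count, and its strand setting is not given in the sources used here. Which strand the reads of a row came from is therefore not certain, above all where exons of a member share bases with a gene on the other strand.

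Levels below are normalised read counts, the deposited values, in which reads were divided by a factor of the library. The 9 libraries held 432322 to 1285816 reads. PBS replicate 4 stood apart: its summed level of 12 granulocyte markers was 1121, against 28.0 to 92.6 in the other 8 libraries, that of 10 epithelial markers was 480, against 15.8 to 178, and that of 12 fibroblast markers was 1690, against 2508 to 3548. In DOX replicate 2 a ribosomal RNA feature took 35.3% of the reads, against 5.74% to 16.8% in the others. All 12 fibroblast markers were above 0, although Pdgfra itself was at 0.81 to 11.99 in the PBS libraries.

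The strand that was counted bears on what every level here stands for, and several rows, looked at after the values were seen, speak to it. Of the 50 highest rows with a single gene in GENCODE M21, 45 lay over the last 500 bases of a transcript on the other strand. Rows over such an end were 20.7% of those above 0 and held 82.2% of the reads. Polr2b, a subunit of RNA polymerase II, was at 41572 over the end of Igfbp7, a secreted binding protein, which was at 93.1. Syn3, a synaptic vesicle gene, was at 12281 over the end of Timp3, a secreted protease inhibitor, which was at 36.0. The mitochondrial gene mt-Nd6, alone on its strand among the protein genes, had a mean of 473, while the 12 on the other strand had means of 0 to 26.9. The median of 75 ribosomal protein genes was 19.7. Not every row was of this kind: Actb (21987) and Col1a1 (1575) were high and lay over no such end. Reads counted on the strand opposite to that of the RNA would give most of these levels. Read in that way, the level of an opposite-strand member counts RNA made from its partner's strand, or from another gene's that ends there, and the level of a partner counts RNA from the member's strand. Levels below are those of the rows as deposited, and neither they nor the marker sums above can be given to a strand with certainty.

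Where exons of a member lay over the 3′ end of a gene on the other strand, the letters of that end show what both strands share. The ends below are printed in the sense of the ending gene, 5′ to 3′, on mm10 from GENCODE M21, with its polyadenylation signal in capitals. Each stretch lies wholly within an exon of the member named, and they are shown because these members passed the filter for testing.
Hoxb3 end under Hoxb3os, chr11:96347894-96347923, + strand: aaacaattcttgAATAAActttctgttatt
Hoxb2 end under Hoxb3os, chr11:96353980-96354009, + strand: tttcatagcgtaAATAAAtgtctttataat
Sardh end under Sardhos, chr2:27189391-27189420, - strand: cctgagacccagAATAAAggcaaagcacag
Abhd11 end under Abhd11os, chr5:135012137-135012166, + strand: acacttttaatgAATAAAgacagttcccct
Zfp512b end under Uckl1os, chr2:181582116-181582145, - strand: gtcactgtatcaAATAAAtgtttattgatt
Prox2 end under Prox2os, chr12:85086385-85086414, - strand: aaaatatatataAATAAAaaatggaacttc
The signals searched were AATAAA and ATTAAA in the last 40 bases of each transcript, on its own strand. Of all 58797 protein-coding transcripts, 48.7% held either. A whole 30-base stretch with such a signal lay in the member's exons for 7 of the 34 members over an end of their partner, and for 4 of the 11 of those that were tested.

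Most members were barely detected. The 135 members took 25483 of 6303233 reads (0.404%). The 3 highest members, Rbfaos, Hoxb3os and Dhrs13os, held 47.1% of the members' reads. Of the members, 69 had a mean level under 1 over the 9 libraries, 29 had 1 read in all, and 51 were above 0 in 1 library. Their median mean level was 0.888, against 0.640 for the partners and 1.06 for all rows above 0. The partners were not chosen as above 0 and include 25 at 0 in every library, which lowers their median. Of all 299 paired symbols, 45.2% were above 0, against 31.5% of all 55302 symbols in the tables.

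The members took a mean of 0.438% ± 0.0461 (SD, n = 4) of the reads in PBS and 0.372% ± 0.0497 (SD, n = 5) in DOX. The PBS libraries held 0.392%, 0.409%, 0.459% and 0.492%, and the DOX libraries held 0.401%, 0.284%, 0.391%, 0.390% and 0.395%. DOX replicate 2, with its large share of ribosomal RNA, was the lowest. Without the ribosomal RNA feature in the totals, the shares were 0.473% ± 0.0486 (SD, n = 4) and 0.447% ± 0.0183 (SD, n = 5), and the groups overlapped.

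To be tested, a row needed a level of at least 10 in at least 4 libraries, which 23 of the 135 members (17.0%) and 14.9% of all rows above 0 met. The 23 members held 93.6% of the members' reads. Of the partners, 16 were tested. The plot of the 23 members by library shows their order, from Rbfaos at 650 to Dnm3os at 7.56.

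**Figure D1:**
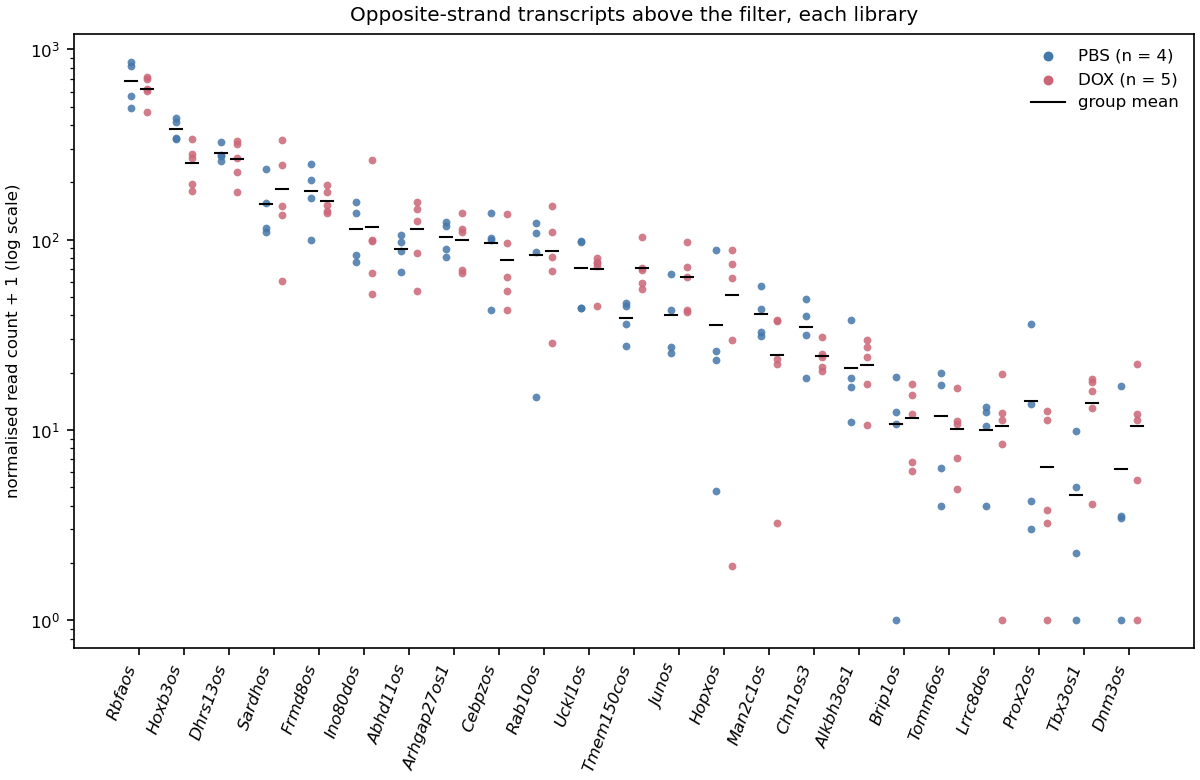
Normalised read count + 1 on a log axis for the 23 opposite-strand transcripts that passed the filter, ordered by mean, with a point for each library of PBS (n = 4) and DOX (n = 5) and a bar at the group mean. Only Tmem150cos has all DOX points above all PBS points.

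The pairs split by where the reads fell. In 84 of 135 pairs the member had the higher mean, in 50 the partner, and in 1 they were equal. Members had to be above 0 and partners did not. Since 25 of the 128 partners were at 0 in every library, the count of 84 is set in part by that rule. If the opposite strand was counted, the orders of the pairs turn: a higher row of the member then stands for more RNA from the strand of its partner. All 23 tested members had a higher mean than their partner, but the filter was met by the member and not always by the partner, so this count is set in part by the choice. In the 7 pairs with both rows tested the member was also higher in 7, among them Tomm6os at 9.89 against 9.74 for Tomm6. For the 9 tested partners whose member was not tested, the partner was higher in 9, a count set in part by the same choice. The member was higher in 9 of 9 libraries for 13 of the 23 tested members. The scatter of members against partners shows both arms.

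**Figure D2:**
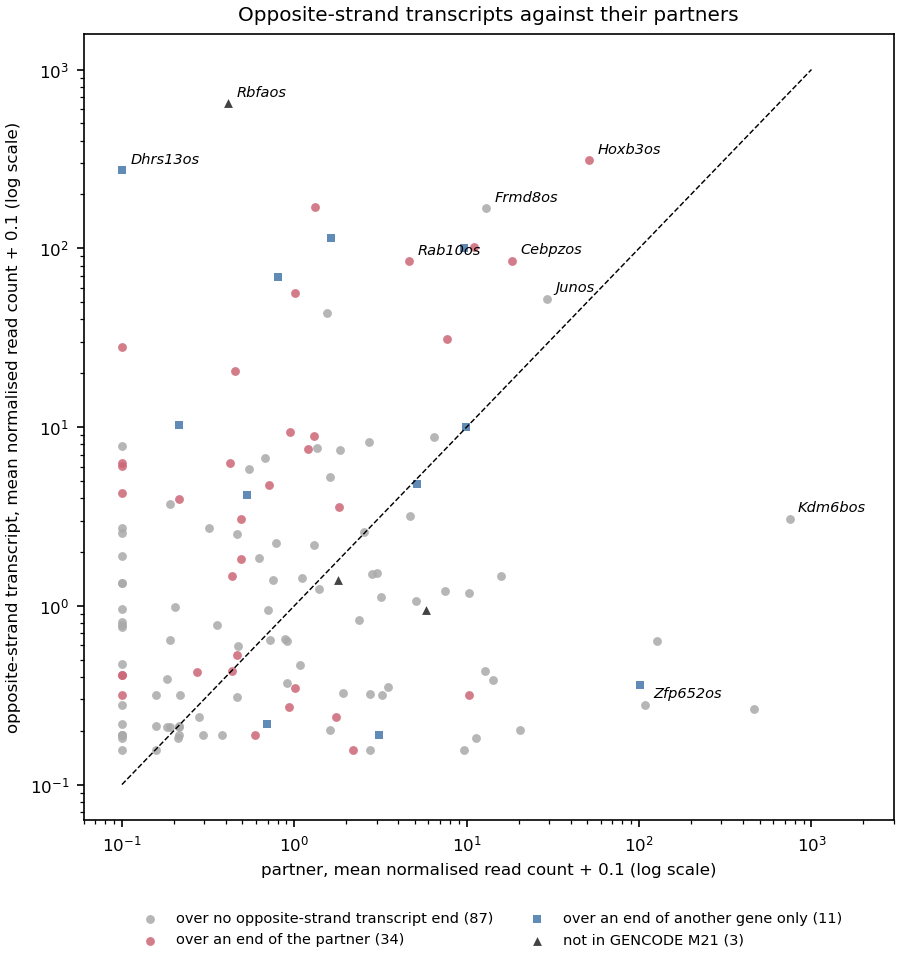
Mean level of each of the 135 opposite-strand transcripts against that of its partner, over 9 libraries, each plus 0.1 on log axes; the dashed line is equality. Colors and shapes mark whether exons of the member lie over the last 500 bases of an opposite-strand transcript, and 17 of the 45 members over such an end passed the filter for testing; Kdm6bos and Zfp652os are labelled at the lower right.

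GENCODE M21 held 132 of the 135 members, 114 of them classed as antisense and 8 as protein-coding; Rbfaos, Oip5os1 and Lef1os1 were not matched. Of the pairs, 49 had the member within the partner, 40 overlapped head to head, 22 tail to tail, 7 had the member spanning the partner, and 11 diverged and 3 converged without overlap. Exons of 34 members lay over the last 500 bases of a transcript of the partner, and exons of 11 more lay over such an end of another gene only. Of these 45 members, 37.8% passed the filter, against 5.75% of the 87 members over no opposite-strand end, and their median mean levels were 4.63 and 0.555. The same split held across all annotated rows above 0: of 3547 rows over an opposite-strand end 38.3% passed the filter, and of the 13597 others 8.99% did. The members thus showed the split that all rows showed, and it is given without a test, since length and neighborhood differ between such rows.

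The map of exons shows 6 of the members with their partner and, where there is one, the other gene that ends beneath them.

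Doxorubicin moved no member past the threshold. With limma on log2(value + 1) over 2604 genes, 0 genes (0%) had a Benjamini-Hochberg adjusted p under 0.05 in either direction, so 0 of 23 members and 0 of 16 partners did; edgeR and DESeq2 on recovered reads also called 0. The unadjusted p was under 0.05 for 162 genes, of which 79 (3.03%) were higher in DOX and 83 (3.19%) lower. Among the members these were Tmem150cos, higher, and Hoxb3os, lower, and among the partners Kdm6b, lower. Of the 23 members, 11 had a higher fitted mean in DOX, against 49.4% of all genes. The median log2 fold change of the members was -0.05, that of the 16 partners -0.22 and that of all genes -0.01. Groups did not overlap, with DOX above, in 1 of 23 members (Tmem150cos) and 1.27% of all genes; with DOX below, in 0 members, 1 of 16 partners (Kdm6b) and 1.38% of all genes. Counts this small in lists this short lie near the background. Where a level differs, a change in the share of cells with the transcript and a change in its RNA per cell cannot be told apart in such bulk libraries.

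**Figure D3:**
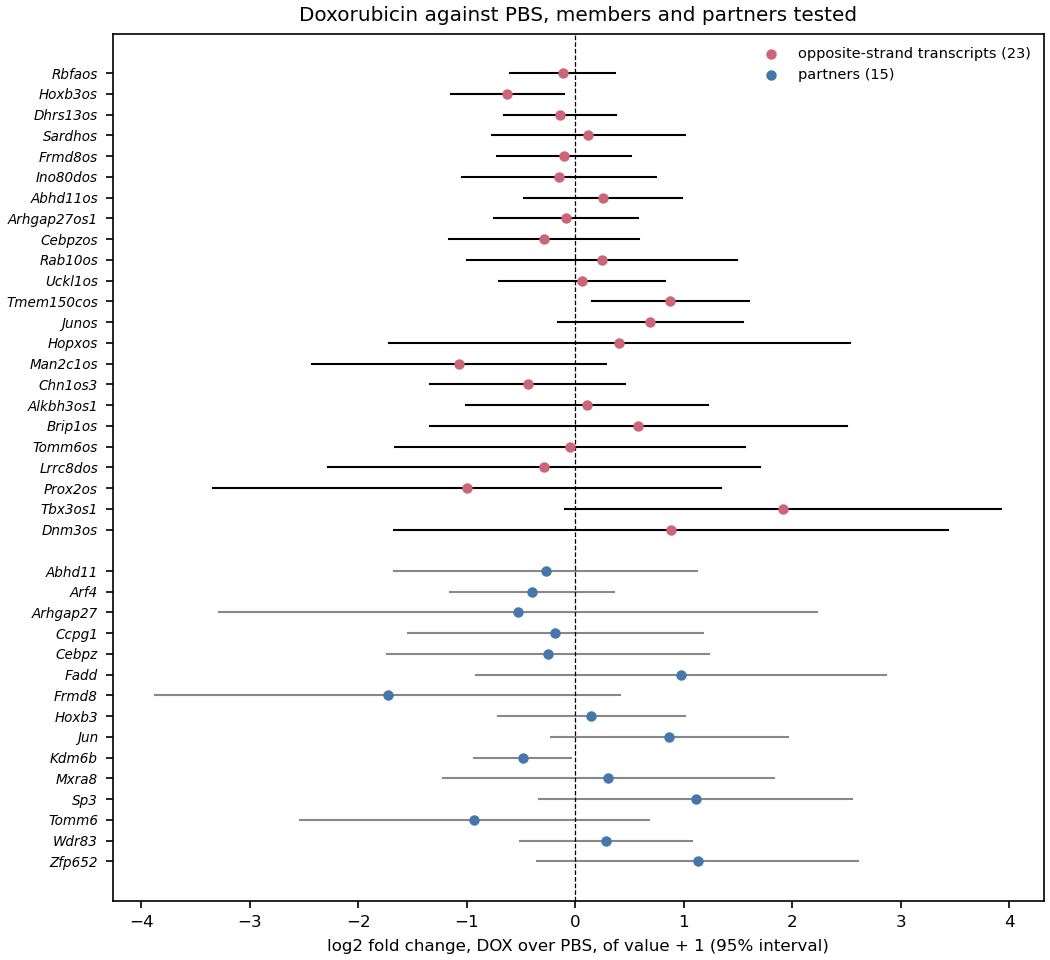
Log2 fold change, DOX over PBS, of value + 1 with its 95% interval from limma, for the 23 opposite-strand transcripts and for 15 of the 16 partners tested. The intervals of Hoxb3os, Tmem150cos and Kdm6b leave out 0 before adjustment for the 2604 genes, and all others drawn cross it.

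Among members of developmental transcription factor loci, Hoxb3os had the highest level. Hoxb3 is a homeobox factor that sets position along the body axis. Hoxb3os (chr11:96343072-96354691, - strand) runs tail to tail with it, shares 2250 exon bases with it, and also lies over the end of Hoxb2. It stood at 341, 414, 434 and 337 in the PBS libraries and at 338, 267, 282, 196 and 179 in the DOX libraries. The groups overlapped by DOX replicate 1 and PBS replicate 4, which were level, and 4 of 5 DOX libraries were below every PBS library. The group means were 381 ± 49.9 (SD, n = 4) and 252 ± 65.2 (SD, n = 5), a log2 fold change of -0.62 (SE 0.244), with an adjusted p of 0.761 by limma. Over 21 alternatives that value stayed between -0.74 and -0.51 and its adjusted p between 0.466 and 0.986. Hoxb3 itself was at 50.9, 68.6, 37.9 and 32.4 in PBS and at 23.2, 50.3, 53.1, 81.4 and 64.5 in DOX, with a log2 fold change of 0.15 (SE 0.406). The log2 ratio of Hoxb3os to Hoxb3 ran from 1.25 to 3.81, so the member was higher in 9 of 9 libraries. Hoxb2 had a mean of 2.13. With the opposite strand counted, the reads listed for Hoxb3os would be of Hoxb3 or Hoxb2, whose ends are printed above.

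Tbx3os1 and Tbx3 pair a transcript and a T-box factor of limb and organ development, head to head with starts 696 bases apart. Tbx3os1 was at 4.00, 0, 1.26 and 8.91 in PBS and at 12.1, 17.4, 3.06, 14.9 and 16.9 in DOX. Tbx3 was at 18.98, 5.28, 5.05 and 8.91 in PBS and at 0, 1.94, 1.02, 0 and 16.4 in DOX, and did not pass the filter. The member was thus at or below its partner in every PBS library and above it in every DOX library. The log2 ratio of the pair was -2.65 to 0 in PBS and 0.04 to 3.99 in DOX, and this was the only pair, of the 23 with a tested member, whose ratios did not overlap. This pair was chosen after the values were seen, rests on 94 reads of Tbx3os1 and 73 of Tbx3, and was not tested. How often ratios of other pairs of genes separate in this way was not computed. With the opposite strand counted, the order of the 2 genes would turn in both groups. Tbx3os1 alone had a log2 fold change of 1.92 (SE 0.948), with an adjusted p of 0.761 by limma.

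Hopxos lies within Hopx, a homeodomain protein that does not bind DNA and is high in alveolar type I cells. It ranged from 3.79 to 87.5 in PBS and from 0.928 to 87.1 in DOX. PBS replicate 4, with the high epithelial marker sum, was the highest in PBS; the part of that sum in the value was not tested. Hopx had a mean of 1.44. Prox2os, over the end of the homeobox gene Prox2, stood at 34.8 in PBS replicate 2 and at 0 to 12.6 elsewhere. Hand2os1, of a heart and limb factor, was at 44.2 in PBS replicate 3, at 7.99 in PBS replicate 1 and at 0 to 1.49 in the other libraries, while Hand2 was at 0 in all.

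Jun, a subunit of the AP-1 factor and an immediate early gene, meets Junos start to start. RefSeq places a start of Junos 95 bases from that of Jun on the other strand, while in GENCODE M21 the starts are 688 bases apart and their exons share 232 bases. Of the 250 bases before the start of Jun, 94 also lie before this RefSeq start of Junos, and the rest lie after it. In GENCODE M21 all 250 lie within the Junos gene, which starts inside Jun. These 250 bases (RefSeq, GRCm38.p6, chr4:95052223-95052472, - strand) are shown because RefSeq places a start of Junos within them:
Jun promoter: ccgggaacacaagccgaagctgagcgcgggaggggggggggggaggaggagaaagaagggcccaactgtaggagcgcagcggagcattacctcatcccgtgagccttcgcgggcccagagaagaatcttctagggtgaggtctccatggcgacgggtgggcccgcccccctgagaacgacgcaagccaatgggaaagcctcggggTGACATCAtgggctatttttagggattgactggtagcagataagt
Capitals mark TGACATCA, which matches TGANNTCA, a motif of AP-1 and CREB-like factors that reads the same on both strands. Of 32851 windows of the same length, 11.9% held TGANNTCA and 6.75% held the AP-1 motif TGANTCA, which was not found in this window; the motifs were counted separately. Junos was at 64.9, 26.4, 41.7 and 24.3 in PBS and at 41.8, 96.8, 40.9, 71.0 and 62.5 in DOX. Jun was at 18.98, 19, 32.8 and 8.10 in PBS and at 40.8, 27.1, 66.4, 35.1 and 15.4 in DOX. Both groups overlapped for both genes. With the opposite strand counted, the reads listed for Jun would be from the strand of Junos, and those listed for Junos from the strand of Jun. The log2 fold changes were 0.69 (SE 0.402) for Junos and 0.87 (SE 0.515) for Jun, with adjusted p by limma of 0.783 and 0.796.

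**Figure D4:**
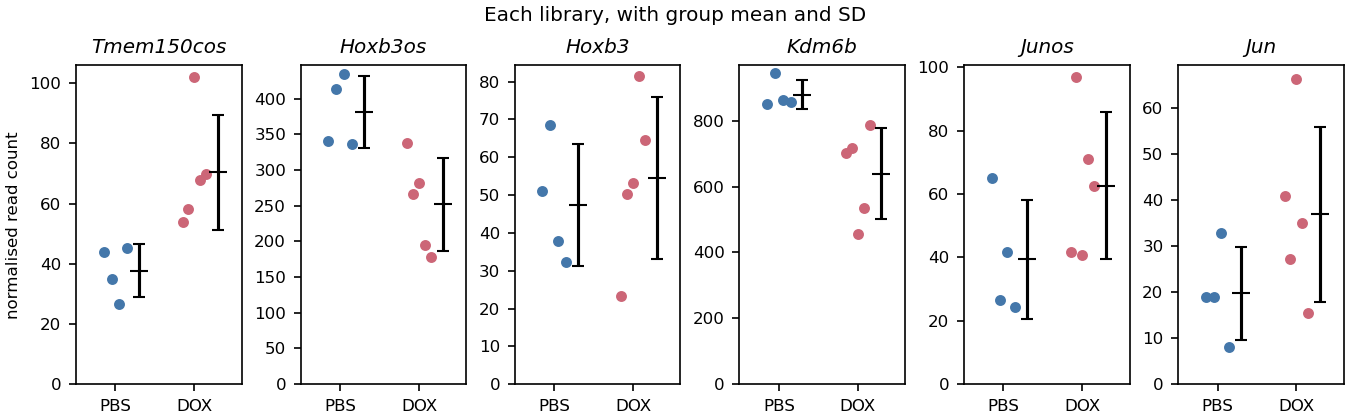
Normalised read count of Tmem150cos, Hoxb3os, Hoxb3, Kdm6b, Junos and Jun in each PBS (n = 4) and DOX (n = 5) library, with the group mean and SD to the right of the points; axes start at 0. Tmem150cos lies higher and Kdm6b lower in every DOX library than in any PBS library, while the groups of the other 4 overlap.

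Tmem150cos was the member with the clearest separation of the groups. Tmem150c encodes tentonin 3, a membrane protein linked to mechanically activated currents, and Tmem150cos (chr5:100077962-100095273, + strand) lies within it and over its end. The level was 44.0, 34.8, 26.5 and 45.4 in PBS and 53.8, 58.1, 102, 68.0 and 69.7 in DOX. The lowest DOX library was above the highest PBS library. The means were 37.7 ± 8.78 (SD, n = 4) and 70.3 ± 18.98 (SD, n = 5), a log2 fold change of 0.88 (SE 0.34), with an adjusted p of 0.761 by limma. Over 21 alternatives the value stayed between 0.72 and 1.03 and the adjusted p between 0.451 and 0.986. Without PBS replicate 4 and DOX replicate 2 together, an alternative chosen after seeing the data, it was 1.03. Tmem150c was at 6.31 in PBS replicate 3, at 1.86 in DOX replicate 1 and at 0 elsewhere, with 7 reads in all. With the opposite strand counted, the values of Tmem150cos would be those of Tmem150c RNA.

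Dnm3os lies within Dnm3, a dynamin of membrane scission, and holds the hairpins of miR-199a-2 and miR-214, microRNAs known for their expression in mesenchymal cells. The mature sequences are given from RefSeq (GRCm38.p6), 5′ to 3′, with the seed, bases 2 to 8, in capitals, to show what the transcript can give rise to:
miR-199a-5p: cCCAGUGUucagacuaccuguuc
miR-199a-3p: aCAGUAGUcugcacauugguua
miR-214-5p: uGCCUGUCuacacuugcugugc
miR-214-3p: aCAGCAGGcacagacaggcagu
The 4 seeds differ from each other. Mature microRNAs carry no poly(A) tail and were not measured. Dnm3os was at 15.98, 0, 2.52 and 2.43 in PBS and at 11.1, 21.3, 10.2, 4.48 and 0 in DOX, the lowest mean of the tested members. PBS replicate 1 alone was high in PBS, and 4 of 5 DOX libraries were above the other 3 PBS libraries. Its log2 fold change of 0.88 had an SE of 1.20. Dnm3 was at 0 to 3.73, and its exons share no base with Dnm3os. Whether the reads are of the microRNA host or of the Dnm3 strand depends on the strand counted.

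Rbfa matures the small subunit of the mitochondrial ribosome. Rbfaos was the highest member, at 571, 489, 820 and 861 in PBS and at 715, 606, 470, 698 and 619 in DOX, and its groups overlapped, with a log2 fold change of -0.12 (SE 0.229). Its reads were 6434 against 3 of Rbfa, a ratio of 2145 with an exact 95% interval of 734 to 10402 that covers counting error only. Rbfaos was not matched in GENCODE M21, so whether it lies over the end of a gene was not checked. With the opposite strand counted, this ratio would say nothing of an Rbfaos RNA. Dhrs13 is a dehydrogenase of the short-chain family. Dhrs13os (chr11:78030012-78032665, - strand) had 2697 reads and its partner 0, so that it was at least 899-fold higher against a floor of 3 reads over the 9 libraries. The last exon of Dhrs13os lies over the end of Phf12, a chromatin-binding protein of the Sin3 complex, whose mean was 1.33. With the opposite strand counted, these reads would be from the strand of Phf12, and the ratio to Dhrs13 would say nothing of a Dhrs13os RNA.

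Sardhos, over the end of sarcosine dehydrogenase, ranged from 109 to 235 in PBS and from 60.0 to 335 in DOX, while Sardh had a mean of 1.22. Abhd11os ranged from 66.9 to 105 in PBS and from 53.0 to 157 in DOX. Its partner Abhd11, a mitochondrial hydrolase, had a mean of 10.9, and GENCODE M21 classes Abhd11os as a transcribed pseudogene. Uckl1os, of a uridine kinase-like gene, lies over the end of Zfp512b and stood at 42.9 to 96.9 in PBS and 44.1 to 78.7 in DOX, with a mean of 0.702 for Uckl1. Man2c1os, of a cytosolic mannosidase, was at 29.98 to 55.9 in PBS and at 21.3 to 36.8 in 4 DOX libraries, with 2.24 in DOX replicate 4. Its log2 fold change of -1.07 (SE 0.639) was -0.44 without DOX replicate 4. Tomm6os and Tomm6, a small subunit of the translocase of the outer mitochondrial membrane, had means of 9.89 and 9.74, and the member was higher in 4 of 9 libraries, so their levels did not differ beyond their spread.

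Rab10os runs into the end of Rab10, a GTPase of vesicle transport, and its libraries lay between 13.9 and 149, while Rab10 had a mean of 4.54. Arhgap27os1, next to the start of Arhgap27 and over the end of Plekhm1, a lysosomal adaptor, was at 65.9 to 137. Arhgap27 had a mean of 9.50. Plekhm1 was at 60.0 in PBS replicate 4 and at 0 to 5.64 elsewhere, and Arhgap27os1 was at 88.3 in that library. Chn1os3, of a Rac GTPase-activating gene, had 276 reads against 0 of Chn1, at least 92-fold higher against the same floor. Exons of Chn1os3 lie over the end of Chn1, so with the opposite strand counted these reads would be from the strand of Chn1. Frmd8os stood at 98.9 to 248 in PBS and at 137 to 192 in DOX. Frmd8, which stabilises the iRhom partners of the ADAM17 protease, had a mean of 12.8 and a log2 fold change of -1.73 (SE 1.01).

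Ino80dos and Brip1os lay over the end of a gene other than the partner. Ino80d is a subunit of the INO80 remodeler. Ino80dos, over the end of the complex I gene Ndufs1, was at 74.9 to 157 in PBS, and in DOX it was at 262 in replicate 5 and at 51.0 to 98.7 in the others. Ndufs1 had a mean of 7.70 and Ino80d of 1.54. Brip1os, which diverges from the helicase gene Brip1 with starts 177 bases apart, was at 0 to 17.98, and Ints2, whose end it covers, had a mean of 8.66. Alkbh3os1, over the end of a demethylase of alkylated DNA, was at 9.68 to 36.6. Among the rest, Cebpzos, which GENCODE M21 classes as protein-coding, was at 41.7 to 137 in both groups together, and Cebpz at 18.3 on average with 68.7 in DOX replicate 4. Lrrc8dos, of a subunit of the volume-regulated anion channel, was at 0 to 18.7.

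At the other arm, 5 partners had a mean of at least 100 with a member near 0. Kdm6b, a demethylase of lysine 27 on histone H3, was the highest. It stood at 849, 944, 863 and 856 in PBS and at 702, 718, 455, 536 and 785 in DOX. Every DOX library was below every PBS library, with means of 878 ± 44.1 (SD, n = 4) and 639 ± 138 (SD, n = 5). The log2 fold change was -0.49 (SE 0.21), with an adjusted p of 0.761 by limma and of 0.527 to 0.986 over 21 alternatives. Kdm6bos, within it, was at 19.5 in DOX replicate 1 and at 0 to 3.79 in the other libraries. With the opposite strand counted, the reads listed for Kdm6b would be from the strand of Kdm6bos. The others included Wdr83 (127, over the end of Dhps), Zfp652 (108, over the end of Abi3) and Arf4 (101, over no end), with members at 0.538, 0.18 and 0.26. Zfp652 was at 325 in PBS replicate 4 and at 19 to 27.8 in the other PBS libraries, and at 34.3 to 201 in DOX; without PBS replicate 4, every DOX library was above every PBS library. Abi3 is an actin-regulating adaptor known for its expression in blood cells, and whether the immune signal of PBS replicate 4 had a part in this value was not tested. Hoxb3os also ceased to overlap without that library, with DOX below. Groups of fewer libraries separate more readily, and the share over all genes without that library was not computed.

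Of the lists of partner roles, 6 members belonged to developmental transcription factors, 2 of them tested, with Hoxb3os lower and Tbx3os1 higher in fitted mean. Tbx3os1 passed the filter through its DOX libraries only. For cytoskeleton, trafficking and centrosome genes the count was 5, with 2 tested, 1 of them higher. On the list of growth factor, receptor and matrix genes there were 2 members (Egfros, Igf2os), with 0 tested. On that of DNA repair, chromatin and cell cycle genes there were 2 (Fancd2os, Oip5os1), with 0 tested. The lists are incomplete, so these counts hold for the listed genes only. The tested Brip1os, Alkbh3os1 and Ino80dos, of a helicase, a DNA demethylase and a remodeler gene, were counted as other. No member belonged to a gene of the immune list, which leaves out lymphocyte genes such as Gimap1, so that Gimap1os was counted as other. The other 121 members held 19 of those tested. None of these passed the test.

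Beside those named elsewhere, the 11 next members by mean lay under the filter and had 35 to 96 reads each over the 9 libraries. Mypopos had the highest mean of the 11, 8.17. It was at 32.3 in DOX replicate 5, 23.2 in DOX replicate 2 and 12.96 in PBS replicate 4, with at most 5.11 elsewhere. Myadml2os had a mean of 7.73, and its partner Myadml2 was at 0 in every library. Slc7a6os, classed as protein-coding, was at 0.999, 3.17, 0 and 0 in PBS and at 28.8, 3.87, 11.2, 15.7 and 2.05 in DOX. DOX replicate 5 was below the highest PBS library, so its groups overlapped, and it was not tested. Prss23os, over the end of a serine protease gene, was at 5.67 to 12.99 in PBS and at 0 to 9.73 in DOX. Atad3aos, which diverges from a mitochondrial ATPase gene with starts 85 bases apart, was at 0 in 3 libraries and at 16.4 at the most. Hectd2os (mean 6.17), Bcas3os1 (5.16), Phtf1os (4.71), Grin1os (4.63), Tnfsf13os (4.18) and Kcnmb4os1 (3.84) followed, each with overlapping groups. Phtf1os was the only one of these 11 whose partner had the higher mean, 5.02.

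Several members below the filter rested on a library each. Of 112 members that were not tested, 11 reached a level of 20 in some library. Gimap1os, of a lymphocyte GTPase gene, was at 51.9 in PBS replicate 4 and at 0 to 2.99 elsewhere, and Plet1os, of an epithelial surface protein, was at 47.8 in that library and at 0 to 2.11 elsewhere. That library also had the highest immune and epithelial marker sums; their part in the 2 values was not tested. Fbxl12os was at 34.96 in PBS replicate 1, Zfp335os at 27.6 in DOX replicate 3 and Rptoros at 23.6 in DOX replicate 5, the last 2 with 0 in the other 8 libraries. Oip5os1, also known as Cyrano, a conserved transcript that directs decay of miR-7, had 14 reads over 9 libraries.

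For scale, 59 other long non-coding RNAs were listed, of which 55 were in the tables, 47 were above 0 and 4 were tested. Of the 4, 3 had a higher and 1 a lower fitted mean in DOX, and 0 passed the test. The row of Tsix, itself the opposite-strand transcript of Xist, had a mean of 46.0. Xist, which coats the inactive X chromosome of female cells, had 4.34. With the opposite strand counted the Tsix reads would be from the strand of Xist, although exons of Tsix lay over no annotated end of Xist. Snhg18 had a mean of 20.3, Tug1 of 16.8 and Malat1, a nuclear RNA that is abundant in most cells, of 11.7. Morrbid was at 65.6 in PBS replicate 4 and at 0 to 1.86 elsewhere, and Neat1 had a mean of 6.21. Of the 135 members, 13 had a higher mean than Tsix and 17 a higher mean than Malat1.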

How the data were processed

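Fibroblast RNA of 9 sorted lung samples (PBS, n = 4; DOX, n = 5) was sequenced by MARS-seq. Per the labels and the study's methods, STAR placed the reads on mm10 and HTSeq-count assigned them to genes. The sources used here give neither tool versions nor the counted strand, so rows that bear on the strand were looked up after the values were seen, without a test. The signal values deposited by the authors are reads divided by a factor of each library. In all 9 libraries every value was a whole multiple (tolerance 0.01 of a read) of what 1 read is worth, so reads were recovered: 497637 to 734114 per PBS library and 432322 to 1285816 per DOX library. Intervals and floors cover counting error only. Of 55421 lines per table, 55302 symbols were left after 119 repeated lines were summed into their symbol.

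The members and all gene lists were chosen with earlier results of these data known. Each member was paired with the row of its symbol without the ending. Strands, exons and transcript ends came from GENCODE M21 (mm10), sequences from its transcripts and from RefSeq. An end means the last 500 bases of a transcript. DOX was compared with PBS over all genes with limma 3.58.1 (trend) on log2(value + 1), two-sided, for rows that reached 10 in 4 or more libraries. P-values were adjusted after Benjamini and Hochberg. A fold change on that scale understates the change of low genes. As alternatives, edgeR 4.0.16, DESeq2 1.42.0 and limma-voom ran on the recovered reads; other filters, pseudocounts (0.5 and 5), scalings, weights, left-out libraries and a replicate block were also run. Named were all members that passed the filter with their partners, up to 15 further members of highest mean, members whose groups did not overlap with a mean of at least 2, partners with a mean of at least 100, and up to 6 known long non-coding RNAs. A pair that met this rule is not reported here. Figures were drawn with matplotlib 3.10.9. P-values measure the spread between libraries labelled as biological replicates.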

Additional observations from a re-analysis of the deposited data

Results flagged for a closer look

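Dixon's ratio was applied to the 23 members and 16 partners tested and to 2 totals, in 82 groups of 4 or 5 libraries, and marked 7; chance marks about 1 group in 20. In PBS, Dnm3os was at 15.98 in replicate 1 against 0 to 2.52 in the others, Kdm6b at 944 in replicate 2 against 849 to 863, and Zfp652 at 325 in replicate 4 against 19 to 27.8. In DOX, Ino80dos was at 262 in replicate 5 against 51.0 to 98.7, Uckl1os at 44.1 in replicate 5 against 71.5 to 78.7, and Cebpz at 68.7 in replicate 4 against 5.81 to 11.2. The share of reads in the members was 0.284% in DOX replicate 2 against 0.390% to 0.401% in the other DOX libraries; that library also had the largest share of the ribosomal RNA feature, and without that feature it held 0.438% against 0.425% to 0.474%.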

How the results depend on the processing

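No alternative called a member or a partner. Without a filter, 3 of all genes were called, against 0, and none is a member. The median log2 fold change of the members stayed between -0.16 and 0.05. The replicate numbers did not pair the libraries (correlations of deviations 0.0207 to 0.0665), and the fit with a replicate block called 0 genes and gave a median of -0.09 for the members. The mean share of reads in the members became 0.326% in PBS and 0.280% in DOX without Rbfaos, and 0.447% in DOX without the ribosomal RNA feature in the total. With at least 10 reads over the 9 libraries, 68 members remained of 135. By medians in place of means the member was higher in 37 pairs in place of 84, since most medians were 0. With transcripts of support level 1 or 2 alone, 22 members lay over an end of the partner in place of 34. Tested members and partners whose groups did not overlap numbered 2, with 2 to 4 when 1 library was left out. Without PBS replicate 4 they were 4: Hoxb3os, Tmem150cos, Kdm6b and Zfp652. Without PBS replicate 4 and DOX replicate 2 together, an alternative chosen after seeing the data, they were 5. Groups of fewer libraries separate more readily. The shares over all genes, 1.27% and 1.38%, are for 9 libraries and were not computed for these settings, so the higher counts are no result about the members.

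Some log2 fold changes changed sign, none past the threshold; the farthest from 0 as reported were Dnm3os (0.88), Brip1os (0.58) and Arhgap27 (-0.52). With DESeq2 these were Ino80dos 0.035, Lrrc8dos 0.13, Uckl1os -0.027, Ccpg1 0.036 and Cebpz 0.36, and with edgeR Ino80dos 0.031, Lrrc8dos 0.11, Uckl1os -0.025, Ccpg1 0.036 and Cebpz 0.36. With limma-voom they were Dnm3os -0.44, Lrrc8dos 0.24, Tomm6os 0.16 and Ccpg1 0.0082, and with array weights Frmd8os 0.013, Tomm6os 0.16, Uckl1os -0.060 and Hoxb3 -0.098. With the replicate block they were Arhgap27os1 0.030, Sardhos -0.15 and Arhgap27 0.042. Without PBS replicate 4 and DOX replicate 2 together they were Frmd8os 0.039, Lrrc8dos 0.61, Rbfaos 0.012, Uckl1os -0.17, Abhd11 0.028, Ccpg1 0.47, Cebpz 0.16 and Hoxb3 -0.012. With 1 library left out the values ran from -0.16 to 0.43 for Alkbh3os1, -1.46 to 0.042 for Arhgap27, -0.22 to 0.042 for Arhgap27os1, -0.36 to 1.05 for Brip1os, -0.53 to 0.27 for Ccpg1, -0.36 to 0.078 for Frmd8os, -0.34 to 1.40 for Hopxos, -0.023 to 0.42 for Hoxb3, -0.50 to 0.080 for Ino80dos, -0.68 to 0.44 for Lrrc8dos, -0.14 to 0.70 for Mxra8, -0.46 to 0.60 for Rab10os, -0.27 to 0.0069 for Rbfaos, -0.15 to 0.46 for Sardhos, -0.47 to 0.18 for Tomm6os and -0.13 to 0.26 for Uckl1os. The cause of these sign changes was not tested.

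Depth limits what low members can show: 69 of 135 had a mean level under 1, and 112 were not tested. Which strand the reads of overlapping genes came from is not certain without the strand setting, and no alternative recounted them.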
